A study of Mus musculus with 2 samples.

Results

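The cytosolic ribosomal protein genes were taken as all genes whose symbol in the array annotation begins with *Rpl* or *Rps* and a digit, or is *Rpsa*, *Rplp0*, *Rplp1* or *Rplp2*, leaving out the *Rps6k* kinases, pseudogenes and provisional names. Only probe sets that name exactly 1 gene were used, which gave 50 of the 18193 genes measured. They comprised 22 genes of the large subunit, 21 of the small subunit, 6 paralogs whose symbol ends in l or l1, and *Rps19bp1*, which fits the symbol rule but encodes a protein that binds Rps19. The 43 genes of both subunits are called core genes here. RNA came from the mouse macrophage line RAW264.7, which can form osteoclasts. One culture received a siRNA against *Flcn*, which encodes the tumor suppressor folliculin, and the other received a scramble siRNA, and both had been grown in RPMI-1640 and were changed after 24 hours to MEM with 10% FCS for a further 48 hours, with no RANKL named for these samples. Each condition was measured on 1 Affymetrix Mouse Genome 430 2.0 array, so that no difference has a replicate check and no test was made.

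Each cytosolic ribosome joins a large subunit, which forms the peptide bond, to a small subunit, which decodes the mRNA. Ribosomal protein mRNAs are among the most abundant of growing cells, and most of them begin with a tract of pyrimidines, the terminal oligopyrimidine or TOP motif, through which their translation follows the activity of the kinase mTORC1. Folliculin acts on the Rag GTPases that bring nutrient signals to mTORC1. The arrays measure the amount of mRNA and not its translation, and a lower signal in bulk RNA does not tell fewer expressing cells from less RNA per cell.

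The start regions of a few of these genes are shown because *Rps27* and its paralog differ there. Some also hold motifs that the symbol rule did not use and that were more frequent in the core genes than in all genes. The sequences are RefSeq promoters of GRCm38.p6, cut to the 30 bases before the annotated start and the 20 bases from it, and are written 5′ to 3′ on the strand of the gene, for the first start where the table lists several. Capitals mark each match to CTTTC, a pyrimidine run of the kind found at TOP starts, and to CGGAA or its complement TTCCG, the centre of the motif bound by ETS factors. Where matches overlap, as they do at *Rps27* and *Rpl7a*, the shared letters are marked once. *Rpl22l1*, the paralog with the lowest ratio, has no match, though its window holds another run of pyrimidines. The windows of its parent *Rpl22*, of the paralog *Rpl7l1* and of *Rps24* and *Rps9*, not printed here, have no match either. All core genes printed have CTTTC, whereas most core genes in the promoter table do not.
Rpl22l1, chr3:28805478-28805527, plus strand: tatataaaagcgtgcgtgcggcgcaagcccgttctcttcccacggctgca
Rps27l, chr9:66946056-66946105, plus strand: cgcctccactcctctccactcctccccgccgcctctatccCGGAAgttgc
Rps27, chr3:90213629-90213678, minus strand: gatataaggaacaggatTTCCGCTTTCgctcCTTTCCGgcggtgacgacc
Rpl35, chr2:39005112-39005161, minus strand: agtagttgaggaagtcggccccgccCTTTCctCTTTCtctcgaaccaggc
Rpl7a, chr2:26910777-26910826, plus strand: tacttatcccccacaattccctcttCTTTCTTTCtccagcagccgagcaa
Rplp2, chr7:141447621-141447670, plus strand: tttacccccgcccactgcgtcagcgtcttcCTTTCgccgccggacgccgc
Rps10, chr17:27635225-27635274, minus strand: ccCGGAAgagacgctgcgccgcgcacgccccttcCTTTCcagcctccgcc
Rpl38, chr11:114668550-114668599, plus strand: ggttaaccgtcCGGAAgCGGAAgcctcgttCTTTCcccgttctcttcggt

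Of the 43 core genes, 38 were in the promoter table. In the counts, a gene with several listed starts had a motif where any of its starts had it. CTTTC on the gene strand stood within these 50 bases in 11 of 38 core genes (28.9%), against 8.0% of all 27025 genes in the table, and on either strand in 36.8% of the core genes and 14.3% of all genes. CGGAA on either strand stood in 92.1% of the core genes within the full 300 bases of each promoter, against 32.7% of all genes, and within the 50 bases in 42.1% against 11.2%. The 11 core genes with CTTTC had a median log2 ratio of -0.09, and 8 of them were below 0. The 26 without it that passed the signal filter had a median of -0.04, and 19 of them were below 0. These matches describe letters in a window and name no factor that acts there. A gene without CTTTC can still hold another pyrimidine run, so it is not shown to lack a TOP start.

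The siRNA target was lower in the *Flcn* siRNA cells at both of its probe sets that passed the filter. They gave 145.4 with *Flcn* siRNA against 208.6 with scramble siRNA (log2 ratio -0.52), and 206.2 against 240.9 (-0.22). All 8 macrophage markers were above the filter, with a summed signal of 19564.7 with *Flcn* siRNA and 19921.5 with scramble siRNA and ratios from -0.36 (*Ptprc*) to 0.10 (*Cd68*), and of 14 measured markers of fibroblasts, epithelial, endothelial, T and B cells only *Col1a2* (12.7 with *Flcn* siRNA and 18.3 with scramble siRNA) and *Epcam* (12.7 and 14.8) passed it, both below the array median of 13.6 in the *Flcn* siRNA cells. The summed signal of those 14 markers was 69.8 with *Flcn* siRNA and 111.0 with scramble siRNA. Of 4 osteoclast markers, *Ctsk* had 58.4 with *Flcn* siRNA and 17.2 with scramble siRNA (1.76) and *Acp5* 115.6 and 90.8 (0.35), while *Oscar* and *Calcr* were under the median on both arrays, and the sum of the 4 was 185.1 with *Flcn* siRNA and 121.7 with scramble siRNA. The part of these markers in the ratios of the ribosomal protein genes was not tested.

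The core ribosomal protein mRNAs were nearly level between both conditions. Ratios are the log2 of the signal with *Flcn* siRNA divided by that with scramble siRNA, after signals under the array median (13.6 with *Flcn* siRNA and 12.8 with scramble siRNA) had been raised to it. The brightest probe set stood for its gene, and a gene passed the filter when the geometric mean of both signals reached 13.2. Of the 50 genes, 46 passed, 42 of them core genes, while *Rps16* (0.4 with *Flcn* siRNA and 2.7 with scramble siRNA) did not. The 42 core genes had a median log2 ratio of -0.04, a fold of 0.972, and ranged from -0.32 to 0.24. Over all 10285 genes that passed, the median was 0.01 and the middle 50% lay between -0.19 and 0.22. The middle 50% of the core genes lay between -0.09 and 0.01.

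None of the 42 core genes differed by 1.5-fold or more, where 5.52% of all genes were lower and 5.85% higher by that size. At 1.2-fold, 1 core gene was lower (*Rpl39*) and 0 were higher, against 19.1% and 20.8% of all genes. Below 0 lay 29 of the 42 core genes (69.0%), against 48.1% of all genes. Genes with strong signals spread less on these arrays, with the middle 50% of those at 1000 or more between -0.14 and 0.14, so the 34 core genes with a signal of at least 1000 were also set against genes of that range. Of these 34, 25 were below 0 (73.5%), with a median of -0.04 and a range from -0.19 to 0.09, whereas 48.4% of all 888 genes in that range were below 0, with a median of 0.01. By 1.5-fold, 31 of these 888 genes were lower and 9 higher. Among the 118 other genes with a signal of at least 3000, 52 were below 0, with a median of 0.02. Of these 118, 7 were lower and 5 higher by 1.2-fold, and 1 was lower and 0 higher by 1.5-fold. The lack of core genes past 1.5-fold was thus close to what other genes of such signals gave.

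The size of so small a shift depended on how the arrays were scaled. After division of each array by its median, 39 of the 42 core genes (92.9%) were below 0, so that most genes given as slightly higher in the next paragraphs turned, but below 0 were also 60.2% of all genes and 66.1% of those with a signal of at least 1000. With quantile normalization, 54.8% of the core genes were below 0, against 48.2% of all genes and 44.6% of the strong ones. The core median lay below the median of all genes under each of the scalings tried, by values given with the processing alternatives. Division by the median shifts every ratio by the same amount, so it could not change that order. The 18S rRNA control probe sets gave 667.0 with *Flcn* siRNA against 774.6 with scramble siRNA at the 3′ end (-0.22), 2008.8 against 2304.4 in the middle (-0.20) and 3453.7 against 3342.8 at the 5′ end (0.05), and their part in the shift was not tested.

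**Figure D1:**
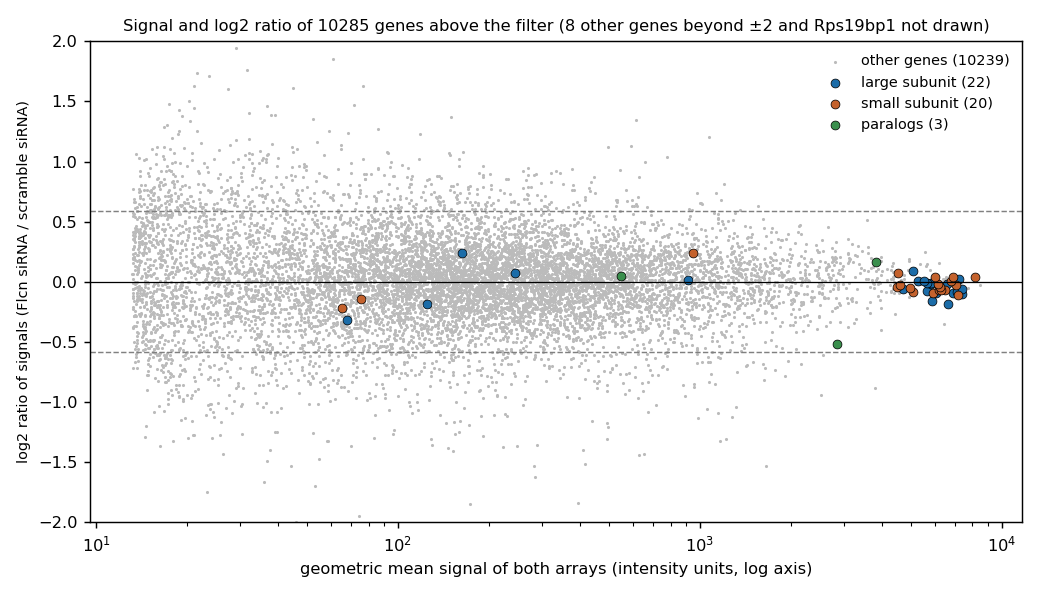
Geometric mean signal of both arrays (log axis, intensity units) against log2 of the signal with *Flcn* siRNA over that with scramble siRNA for the genes above the filter, with large subunit genes in blue, small subunit genes in orange, paralogs in green and other genes in grey; dashed lines mark 1.5-fold, and *Rps19bp1* and 8 other genes beyond 2 in size are not drawn. Most core genes sit at the right end, close to 0, and the paralog *Rpl22l1* lies clearly below them at -0.52.

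In the large subunit, 15 of 22 genes were below 0 and the median was -0.04. *Rpl22*, an RNA-binding protein on the outer face of the subunit, had 6201.6 with *Flcn* siRNA against 7055.6 with scramble siRNA (-0.19). Its other probe sets moved less, with 4508.4 against 4621.1 (-0.04) and 159.8 against 164.2 (-0.04). *Rpl10a*, which forms the mobile L1 stalk, had 5563.0 against 6209.2 (-0.16). *Rpl4*, which lines part of the exit tunnel, had 7113.5 against 7646.1 (-0.10), and *Rpl7a* had 6675.6 against 7140.6 (-0.10). Each of these genes was lower with *Flcn* siRNA. The median SD between probe sets of 1 gene was 0.058 over the 16 core genes with several probe sets at 1000 or more, and 0.186 over 5034 genes of all signals, and neither is a replicate error.

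*Rpl13a*, which in human monocytes also leaves the ribosome to silence inflammatory mRNAs, was lower at 4 of 4 probe sets, with 6881.6 with *Flcn* siRNA and 7310.4 with scramble siRNA at the strongest (-0.09) and log2 ratios from -0.20 to -0.08. Of the stalk proteins that recruit translation factors, *Rplp0* had 5505.2 against 5822.5 (-0.08) and *Rplp2* had 7253.9 against 7574.4 (-0.06). *Rplp1* had no probe set of its own. *Rpl11*, which can bind Mdm2 when ribosome assembly is disturbed, had 4606.0 against 4801.7 (-0.06). These genes of separate roles were all slightly lower in the *Flcn* siRNA cells.

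*Rpl27* was lower at 3 of 3 probe sets but not to the same extent, with 5809.5 against 5852.6 at the strongest (-0.01), and 2471.7 against 3133.4 (-0.34) and 2744.9 against 3219.5 (-0.23) at the others. *Rpl19* had 5796.5 against 5875.1 (-0.02) and *Rpl41*, a very short protein, 6529.0 against 6616.7 (-0.02). At or above 0 stood *Rpl8*, near the peptidyl transferase centre, with 5253.7 with *Flcn* siRNA and 4944.5 with scramble siRNA (0.09), *Rpl38*, which in mouse embryos is needed to translate Hox mRNAs, with 7268.8 and 7147.1 (0.02), and *Rpl6* with 5288.3 and 5262.6 (0.01). *Rpl7* had 5623.9 and 5649.8 (-0.01) at its strongest probe set and was higher at the other ones, with 3327.5 against 3045.2 (0.13) at one of them. Among large subunit genes with a signal of at least 1000, the ratios reached -0.19 on the lower side and 0.09 on the higher side.

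In the small subunit, 14 of 20 genes were below 0, with a median of -0.04. *Rps10*, at the entry of the mRNA channel, was lower at 6 of 6 probe sets, with 6863.7 with *Flcn* siRNA and 7419.5 with scramble siRNA at the strongest (-0.11). *Rps19*, whose human gene is often mutated in Diamond-Blackfan anaemia, had 4931.9 against 5240.9 (-0.09). *Rps24* and *Rps7*, mutated in the same disease, had 5726.4 against 6121.4 (-0.10) and 6162.4 against 6455.6 (-0.07). *Rps3a1* (6305.5 against 6627.6) and *Rps4x* (6059.0 against 6349.6) were both at -0.07. *Rps20* had 6170.8 against 6349.6 (-0.04), and *Rps26*, which contacts mRNA at the exit channel, had 4432.1 against 4555.6 (-0.04). *Rps2* had 6095.6 against 6182.1 (-0.02), and *Rps15* was lower at both probe sets, with 4578.0 against 4660.1 (-0.03) and 4192.9 against 4489.5 (-0.10). All of these genes were slightly lower in the *Flcn* siRNA cells at the probe set used, the ratios of *Rps10* and *Rps24* being the lowest. *Rps2* was higher at probe sets that also name pseudogenes, given below.

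*Rps3*, which lines the mRNA entry channel and also acts in DNA repair, was higher with 4663.7 with *Flcn* siRNA and 4427.3 with scramble siRNA (0.08) at its strongest probe set, and lower at a weak one (174.9 and 185.7, -0.09). *Rps14* had 6097.2 and 5923.1 (0.04) at one strong probe set and 4505.7 and 4723.1 (-0.07) at the other. *Rps28* had 6963.8 and 6789.4 (0.04) at its strongest, with 0.06 and -0.09 at the others. *Rps29* had 8238.1 and 8030.5 (0.04) at its strongest and was lower at the other 2 (-0.03 and -0.05). The probe sets of each of these 4 genes thus lay on both sides of 0. *Rpsa*, which is also known as the laminin receptor, had 6804.5 and 6769.4 (0.01). No probe set exceeded 8402.6 with *Flcn* siRNA or 8549.6 with scramble siRNA, and whether signals near that end were still linear was not tested. *Rps18*, the internal control of the qRT-PCR in the study's methods, had 6968.5 with *Flcn* siRNA and 7105.5 with scramble siRNA (-0.03) at its strongest probe set, and its other strong ones gave 5125.2 against 5501.9 (-0.10) and 5335.8 against 5736.4 (-0.10).

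The medians of both subunits differed by 0.0007 on the log2 scale, large minus small. Among genes with a signal of at least 1000, the difference was -0.02, with 13 of 17 large subunit genes and 12 of 17 small subunit genes below 0. With only probe sets unique to 1 transcript, which leave 20 core genes, it was 0.08. Of those 20 genes, only 6 had a signal of at least 1000, so this value rests mostly on weaker probe sets.

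**Figure D2:**
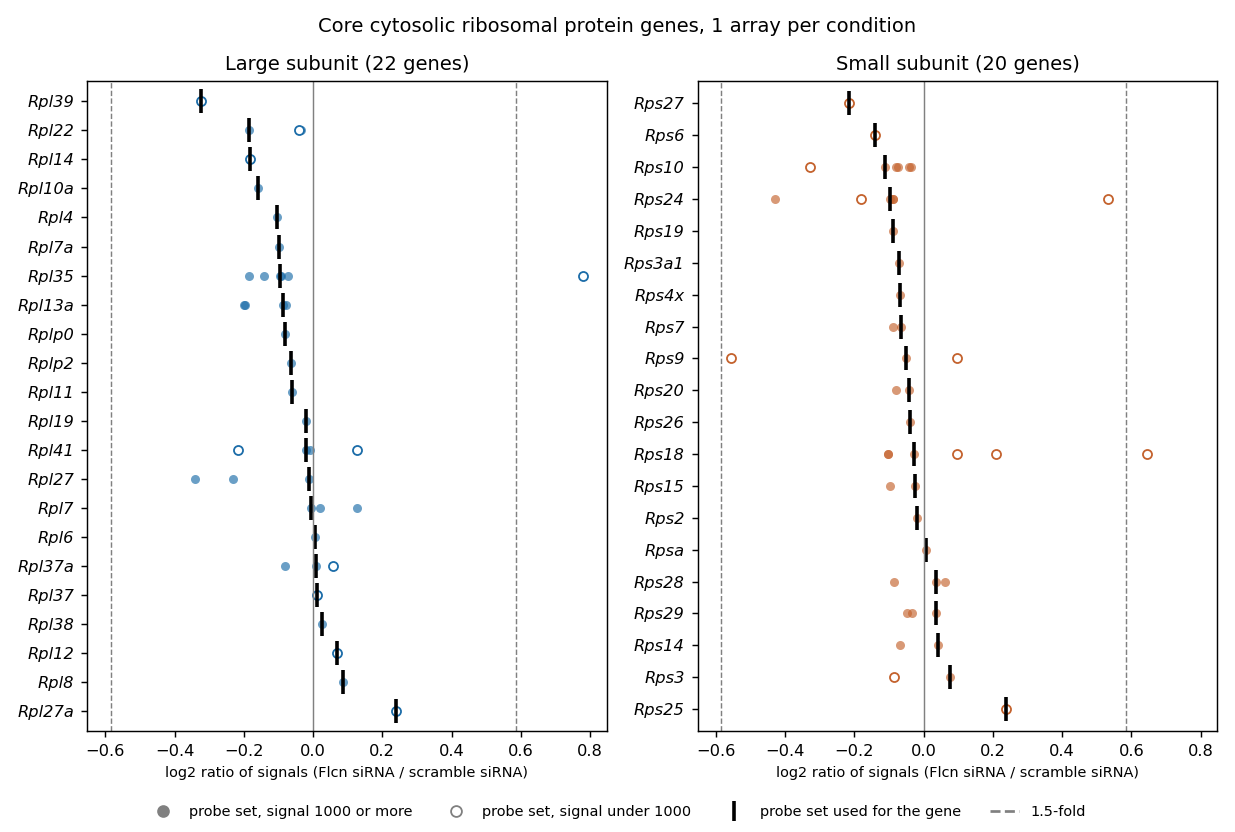
log2 ratio (*Flcn* siRNA over scramble siRNA) for every probe set above the filter of the 22 large and 20 small subunit genes; filled points have a signal of 1000 or more, open points less, black bars mark the probe set used for the gene and dashed lines 1.5-fold. Filled points lie between -0.43 and 0.13, and every point beyond 1.5-fold is an open one.

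The 8 core genes whose best probe set was weaker than 1000 spread more widely, with 4 below 0 and a range from -0.32 to 0.24. *Rpl39*, a short protein lining the exit tunnel, had 60.7 with *Flcn* siRNA and 75.9 with scramble siRNA (-0.32), *Rps27* 60.6 and 70.4 (-0.22), *Rpl14* 116.8 and 132.5 (-0.18), and *Rps6*, the substrate of the S6 kinases downstream of mTORC1, 71.6 and 79.0 (-0.14). *Rpl27a* had 177.1 and 150.1 (0.24), *Rps25*, which is needed by viral internal ribosome entry sites, 1027.6 and 871.2 (0.24), *Rpl12* 251.0 and 239.3 (0.07), and *Rpl37* 918.4 and 911.2 (0.01). The genes at both ends of the core range were thus those measured by weak probe sets. Other probe sets, which name the member together with pseudogenes or provisional genes, were strong for 6 of these genes, and the brightest of them lay closer to 0. It gave 5624.6 with *Flcn* siRNA against 6255.1 with scramble siRNA for *Rpl39* (-0.15), 5037.5 against 5227.9 for *Rpl14* (-0.05) and 6906.4 against 6950.3 for *Rps6* (-0.01). *Rps6* has several such probe sets, and others with signals above 1000 lay further from 0, among them 5786.2 against 6608.7 (-0.19) and 1006.7 against 1384.2 (-0.46). For the genes that had been higher, the brightest gave 6317.6 against 6355.4 for *Rpl27a* (-0.01), 4851.6 against 4839.2 for *Rps25* (0.00) and 6421.1 against 6656.7 for *Rpl12* (-0.05). Strong probe sets that name *Rpl37* together with *Rpl37rt* differed. They gave 5619.0 with *Flcn* siRNA against 6339.2 with scramble siRNA (-0.17) and 6170.8 against 6141.4 (0.01).

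Counting weak probe sets too, those of the same gene differed by a median SD of 0.082 on the log2 scale over 18 core genes. Of these 18, 7 were below 0 at every one of them, 0 were above 0 at every one, and 11 were mixed. The same count was not made over all genes with several probe sets, so it cannot be called unusual. *Rpl35*, at the tunnel exit, was lower at 5 of 6 probe sets, with 5845.5 with *Flcn* siRNA against 6242.4 with scramble siRNA at the strongest (-0.09), but at a weak one it had 24.9 against 14.5 (0.78). *Rps18* had 26.9 against 17.2 (0.65) at a weak probe set. *Rps24* had 3663.8 against 4932.0 (-0.43) at a strong one and 18.5 against 10.5 at a weak one, where the scramble siRNA signal was under the array median. *Rps9*, near the entry of the mRNA channel, had 4893.6 against 5069.7 (-0.05) at its strongest and 86.2 against 126.7 (-0.56) at a weak one. Counted by probe set, 53 of 65 core probe sets with a signal of at least 1000 were below 0, with a median of -0.07, against 10 of 22 weaker ones, with a median of 0.03. The shares over all probe sets of such signals were not counted.

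Many ribosomal protein genes have processed pseudogenes of nearly the same sequence, and their probe sets are then annotated with several genes. With probe sets that name a member and otherwise only pseudogenes or provisional genes, 67 core genes were measured, of which 51 (76.1%) were below 0, with a median of -0.04. Of all 10310 genes then above the filter, 48.1% were below 0, and of those with a signal of at least 1000, 49.5%. At probe sets that also name pseudogenes, signal of the gene and signal of its pseudogenes cannot be told apart. The large subunit then had 34 of 41 genes below 0 (median -0.05) and the small subunit 17 of 26 (median -0.03). Of the 25 genes gained in this way, 21 were below 0, and the lowest were *Rpl34*, with 5142.4 with *Flcn* siRNA and 5792.8 with scramble siRNA (-0.17), and *Rpl13*, with 6118.6 and 6870.5 (-0.17). The highest was *Rps15a* with 6287.8 and 5973.0 (0.07), and *Rplp1* had 6639.4 and 6621.2 (0.00). *Rps16*, whose own probe set was under the median on both arrays, had 6720.3 and 6980.7 (-0.05). *Rps2*, slightly lower at its own probe set (-0.02), was higher at such probe sets. They gave 7349.6 with *Flcn* siRNA against 6817.7 with scramble siRNA (0.11) and 5635.4 against 5446.5 (0.05). By the first of these, *Rps2* was the highest of the 67 core genes.

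Of the 3 paralogs above the filter, 1 was lower and 2 were higher with *Flcn* siRNA. *Rpl22l1*, a close relative of *Rpl22* that can take its place in the ribosome, had a signal of 2373.6 with *Flcn* siRNA and 3405.3 with scramble siRNA, a fold of 0.697 (log2 ratio -0.52), measured by 1 probe set. It was the lowest of the 45 core genes and paralogs above the filter and lay 0.33 on the log2 scale under *Rpl22*, which was itself lower (-0.19). With each array divided by its median its ratio was -0.61, past the 1.5-fold that it did not reach otherwise. *Rps27l*, a relative of *Rps27* whose human form is induced by p53, was higher at 3 of 3 probe sets, with 4050.5 with *Flcn* siRNA against 3624.1 with scramble siRNA (0.16), 4065.4 against 3542.2 (0.20) and 3546.2 against 2914.5 (0.28). *Rps27* had only the weak probe set given above, and a strong one that it shares with *Rps27rt*, a near-identical copy, gave 4306.0 against 4796.2 (-0.16). The paralog thus had a higher signal with *Flcn* siRNA and its parent a lower one at both probe sets.

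*Rpl7l1*, a relative of *Rpl7* linked to ribosome assembly, had 558.2 with *Flcn* siRNA and 539.3 with scramble siRNA at its strongest probe set (0.05), but 483.9 and 342.0 (0.50) and 89.6 and 53.2 (0.75) at the others. Its difference from *Rpl7* was 0.06 by the strongest probe sets and 0.39 by the mean over all of them, so that its size rests on the choice of probe set, and with median scaling its own ratio was -0.04. The other 3 paralogs, *Rpl39l* (3.3 with *Flcn* siRNA and 1.3 with scramble siRNA), *Rpl3l* (1.8 and 11.8) and *Rps4l* (0.7 and 0.4), were under the array median on both arrays, and no ratio is given for them. *Rps19bp1* had 237.3 and 218.3 (0.12). None of the paralogs reached 1.5-fold at the probe set used under the deposited scaling.

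**Figure D3:**
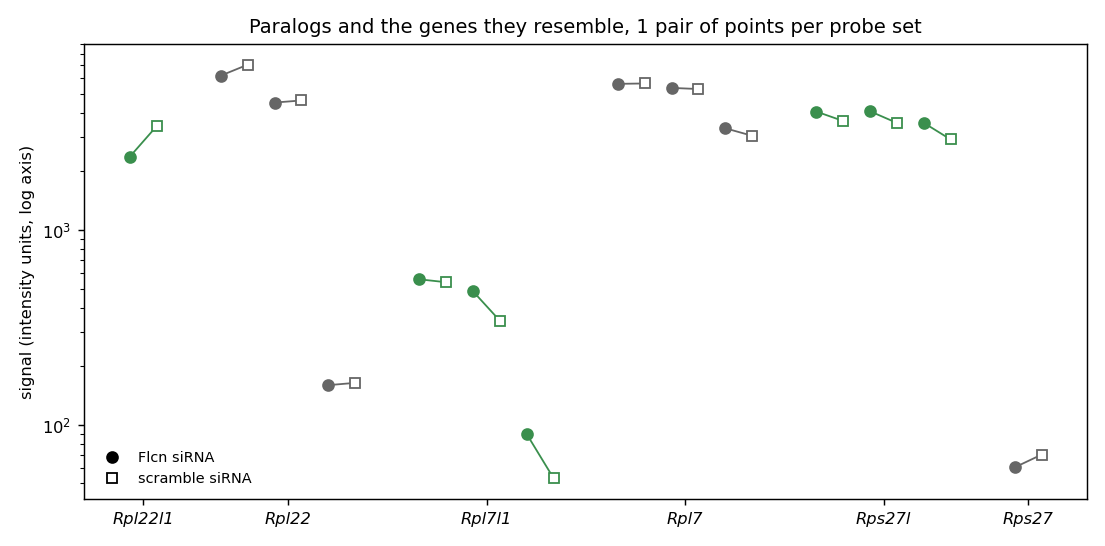
Signal (log axis, intensity units) of each probe set of the paralogs above the filter (green) and of the genes they resemble (grey), with circles for *Flcn* siRNA and squares for scramble siRNA joined by a line; 1 array per condition, so no error bar is drawn. The line of *Rpl22l1* climbs toward scramble siRNA (2373.6 and 3405.3), while the lines of all *Rps27l* and *Rpl7l1* probe sets descend.

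Neighbours of these genes by function were set beside them. A list of 22 measured genes of translation factors and other TOP mRNAs had a median log2 ratio of -0.03, with 12 below 0 (54.5%) and 10 above it. This share was near the 48.1% of all genes and the 48.4% of those with a signal of at least 1000. None of the list passed 1.5-fold, where 5.52% of all genes were lower and 5.85% higher. *Eef1a1*, which brings aminoacyl-tRNA to the ribosome, had 7267.0 with *Flcn* siRNA and 7471.6 with scramble siRNA (-0.04), and *Eef2*, the translocation factor, had 3884.7 and 4102.4 (-0.08). *Gas5*, a noncoding host of small nucleolar RNAs with a TOP start, was the lowest of the list with 1860.3 and 2280.8 (-0.29), and *Eef1d* the highest with 1740.9 and 1580.9 (0.14). *Fau*, which encodes a small subunit protein fused to a ubiquitin-like one and falls outside the symbol rule, had 5554.0 and 5896.6 (-0.09).

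The proteins of the mitochondrial ribosome, which are encoded by separate nuclear genes, had more ratios above 0 than below. Of 76 such genes, 22 were below 0 (28.9%), against 48.1% of all genes, and 54 were above it. Their median was 0.13, against -0.04 for the 42 core genes of the cytosolic ribosome. With each array divided by its median, this median was 0.0438, against -0.128 for the core genes. That scaling shifts both lists by the same amount, so it could not change the gap between them. At 1.2-fold 3 were lower and 12 higher, both smaller shares than the 19.1% and 20.8% of all genes. The signals of the mitochondrial list had medians of 504.9 with *Flcn* siRNA and 459.2 with scramble siRNA, a range in which ratios spread more than at the signals of the core genes. With 1 array per condition the difference between both lists has no test.

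**Figure D4:**
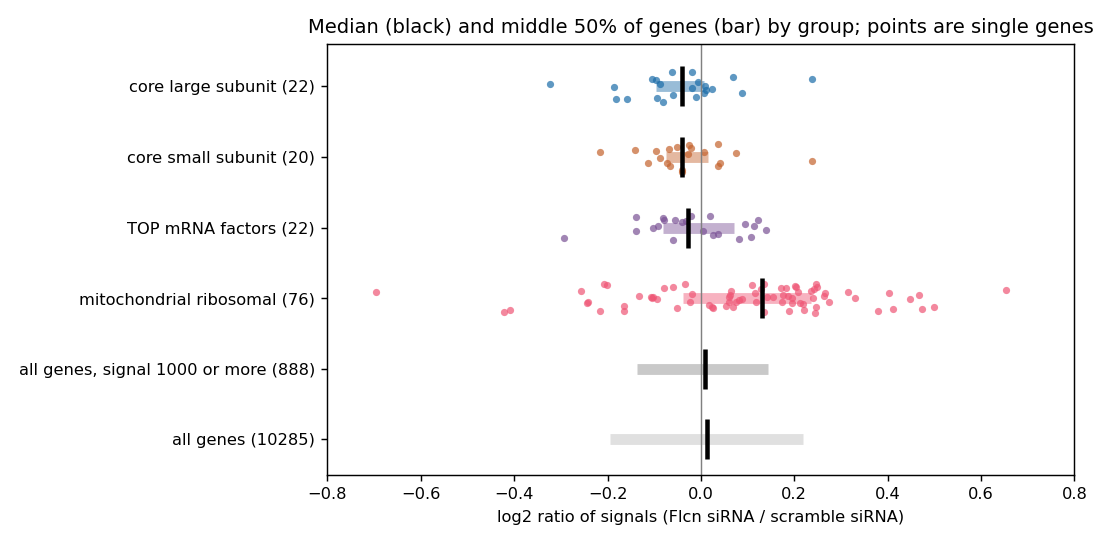
log2 ratio (*Flcn* siRNA over scramble siRNA) by gene group, with single genes as points, the median as a black bar and the middle 50% of genes as a coloured bar; the number of genes stands in brackets. Both subunits share a median of -0.04 and lie in a narrow band, and the mitochondrial ribosomal proteins have a median of 0.13.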

How the data were processed

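The authors processed each array with GCOS 1.0, and deposited a linear signal intensity for every probe set; the scaling target is not given in the sources used here. With 2% trimmed from each end, the mean signal was 99.4 on both arrays. Of 45101 probe sets, 34958 have 1 gene in the platform annotation, 932 have several and 9211 are not listed; 34754 were matched by Entrez ID to the RefSeq table of GRCm38.p6 for symbols. Signals were floored at the array median, and log2 ratios were taken per gene from its brightest probe set by geometric mean. Differences were called by size alone, at 1.5-fold or 1.2-fold. The number of arrays limits the precision, and the SD between probe sets of 1 gene (median 0.186) is no replicate error. Members and lists were chosen with earlier results of these data known. The genes named are the paralogs with their parents, the 8 lowest and 8 highest genes of each subunit whose probe sets lie on the same side of 0 (which overlap in the small subunit), the 5 with the widest range over probe sets, the stalk proteins and those outside the symbol rule; others were named with their values in view. Alternatives covered median, quantile and lowess scaling, other choices of probe set, floor and filter, and, added after seeing the data, probe sets that also name pseudogenes and members with strong signals alone. The functions were tested on simulated data. Promoters came from RefSeq. Python 3.11.15, numpy 2.4.6, pandas 2.3.3, statsmodels 0.14.6 and matplotlib 3.10.9 were used.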

Additional observations from a re-analysis of the deposited data

How the results depend on the processing

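The median of the core genes stayed below that of all genes under each scaling tried, at -0.128 against -0.0747 with each array divided by its median (where the median of all genes turned negative), -0.0122 against 0.0124 with quantile normalization and -0.0402 against 0.000631 with lowess scaling. The first of these shifts every ratio by the same amount and could not change the gap, so only the other scalings bear on it. With median scaling 92.9% of the core genes were below 0, and of all genes 418 were higher and 807 lower by 1.5-fold, so that the higher ones made up 34.1% of both in place of 51.5%. The large minus small difference of 0.0007 was -8.05e-05 without the signal filter and -0.0249 with probe sets that also name pseudogenes, so that its sign turned, and moved most, to 0.0775, with only probe sets unique to 1 transcript (large -0.015, small -0.0925). Only 6 of the 20 core genes left by that last choice had a signal of at least 1000. The mitochondrial median of 0.131 was 0.0438 with median scaling. At 1.2-fold the count of lower core genes was 1. With only probe sets unique to 1 transcript, 2 core genes were higher by 1.5-fold, *Rpl35* (0.78) and *Rps18* (0.65), both at weak probe sets, and *Rps10* was at -0.33. With the mean of all probe sets *Rpl7l1* was at 0.43, and its difference from *Rpl7* was 0.387. For 40 named genes, 373 of 377 values under the alternatives stayed within the median SD between probe sets over all genes (0.186). Many of these values could not do otherwise, so the count is no measure of stability. Other floors and filters left the ratio of each named gene that still passed unchanged. Median scaling shifts every ratio by the same amount, which is smaller than that SD. That SD is wider than the ratios of most core genes, so a value could change sign and still count as unchanged. *Rps9*, for example, went from -0.051 to 0.0973 with only probe sets unique to 1 transcript. The alternative with probe sets that also name pseudogenes was not among the 377 values. No leave-one-out fit could be made with 1 array per condition. No paired analysis was possible because each condition has 1 array and no test was made.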
